A study of Mus musculus with 24 samples.

Results

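Mouse brain libraries whose names carry time code 10 were compared with those that carry time code 05, outside a set of libraries rich in hindbrain RNA. The members are the 11 libraries of these time codes whose column number in the count table is not a multiple of 3, out of 24 libraries in all. They are 5 libraries of time code 10 (2 of E3-10 and 3 of E4-10) and 6 of time code 05 (3 of E3-05 and 3 of E4-05). Each library is polyadenylated RNA from brain of Mus musculus, extracted with TRIzol. The labels spell out neither the E code nor the time code, and give no strain, age, treatment or hour of collection. The series title concerns ApoE4, and the E code was carried as a covariate. The titles name a month: all libraries of time code 05 are titled January or February, all of time code 10 March or April, and their columns stand in the same order. Time code, titled month and column order therefore cannot be told apart. A library is given by its group and its number within it, so E4-10 4 is the fourth of E4-10.

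The members were chosen by measured values, since the columns left out were selected on high levels of cerebellum and hindbrain genes. Over 12 such genes the mean lay between -2.38 and -0.22 log2 CPM in the 11 libraries. In the 5 left out at the same time codes it lay between 5.89 and 6.98 log2 CPM. CPM are counts per 1000000 counts of the library, adjusted by a TMM factor. The label holds on this measure, and it is not a finding. The time contrast itself, and the genes Klf4, Klf2 and Ciart that mark it, were proposed with results of these data known. Their values in the 11 libraries are therefore given as a description. The 5 hindbrain-rich libraries (E3-05 2, E4-05 3, E3-10 1, E4-10 2 and E3-10 4) were not used by the rule and give the same contrast in other libraries, 3 of time code 10 against 2 of time code 05.

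The 11 libraries held 37.4 M to 99.5 M counts each (M, mega; median 46.1 M). They are titled as biological replicates without mention of separate animals. Their p-values measure only the spread between samples, which may be technical. Other tissue was unequally shared: Hbb-bs, a beta chain of haemoglobin, reached 145 CPM in E3-05 1 and 169 CPM in E4-05 1, while the remaining 9 had 2.89 to 19.6 CPM. The pituitary hormone gene Gh reached 7107 CPM in E3-05 4, and no other of the 11 exceeded 76.0 CPM. In bulk RNA, fewer cells of a type and less RNA per cell cannot be told apart.

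Klf2 and Klf4 are zinc finger transcription factors of the Krüppel-like family. Both are induced quickly and are best known in vascular endothelium, where flowing blood keeps them high. Ciart is a repressor in the circadian clock, a loop in which Clock and Arntl (Bmal1) bind E-boxes, drive the Per, Cry, Ciart, Nr1d1 and Dbp genes, and are in turn repressed by several of their products. Neuronal immediate early genes such as Fosb, Arc and Egr1 are transcribed within minutes of neuronal activity and decay quickly.

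Few genes stood apart between the 2 time codes, and those with the smallest p were clock repressors, Krüppel-like factors and mitochondrial tRNAs, all higher at time code 10. edgeR's quasi-likelihood test with Benjamini-Hochberg adjustment called 0 of 19844 genes (0%), and the smallest adjusted p was 0.316, that of Ciart. At an unadjusted p under 0.05 there were 527 genes (2.66%), 301 higher (1.52%) and 226 lower (1.14%), and limma-voom called 0. DESeq2, an alternative, called 5 genes (0.0252% of 19812), all higher at time code 10: Ciart (adjusted p = 2.77e-06), the mitochondrial tRNA TrnW (0.000453), the clock repressor Per1 (0.00278), Klf4 (0.00896) and the mitochondrial tRNA TrnR (0.0361). It called 0 lower. Groups that did not overlap in CPM were found for 40 genes higher (0.202%) and 26 lower (0.131%). Log2 fold changes lay above 0 for 9716 genes and below 0 for 10128, with a median of 0.00.

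**Figure D1:**
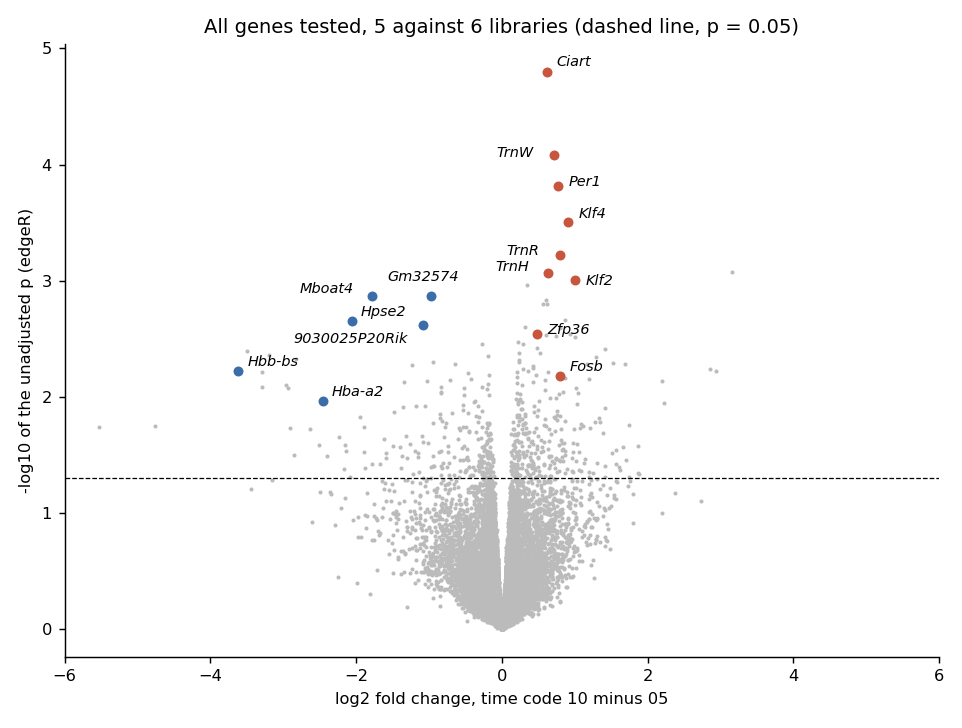
Each grey point is 1 of the 19844 genes tested, with the log2 fold change (time code 10 minus 05) on the x axis and -log10 of the unadjusted p of edgeR on the y axis. Named genes are coloured red where higher and blue where lower at time code 10. Ciart stands highest, and none of the points passed after adjustment over all genes.

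The repressors Ciart and Per1 of the clock loop had the smallest p of the clock genes. The 250 bases before their annotated starts are shown because both genes are textbook targets of Clock and Arntl through E-boxes; capitals mark the E-box CACGTG, which reads the same on both strands. That of Klf4 is shown beside them. Sequences are from RefSeq on GRCm38.p6, another build than that of the counts: Ciart at chr3:95882229-95882478 on the minus strand, Per1 at chr11:69098699-69098948 on the plus strand and Klf4 at chr4:55532476-55532725 on the minus strand.
Ciart: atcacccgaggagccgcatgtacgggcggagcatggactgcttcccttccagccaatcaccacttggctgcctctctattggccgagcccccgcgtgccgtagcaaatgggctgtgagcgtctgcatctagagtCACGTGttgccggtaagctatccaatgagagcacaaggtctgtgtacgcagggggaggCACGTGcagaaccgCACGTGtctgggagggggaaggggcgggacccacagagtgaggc
Per1: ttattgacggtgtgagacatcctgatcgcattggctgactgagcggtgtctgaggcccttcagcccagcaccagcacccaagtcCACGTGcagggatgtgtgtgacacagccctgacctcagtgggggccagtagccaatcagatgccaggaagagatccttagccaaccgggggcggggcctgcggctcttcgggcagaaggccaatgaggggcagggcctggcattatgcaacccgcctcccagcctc
Klf4: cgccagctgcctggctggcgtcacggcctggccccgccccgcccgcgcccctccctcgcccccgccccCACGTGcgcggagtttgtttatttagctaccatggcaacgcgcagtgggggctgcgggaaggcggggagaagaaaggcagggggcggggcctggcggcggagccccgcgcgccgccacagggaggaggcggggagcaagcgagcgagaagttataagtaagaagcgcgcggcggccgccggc

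In this window Ciart holds 3 E-boxes, whose first bases lie at -116, -58 and -44 from the start site. Per1 holds 1, at -166, in the first of its 2 entries and 0 in the other, and Klf4 holds 1, at -182. Of 32851 promoters of the same length, 6.02% hold at least 1 E-box and 20 (0.0609%) hold 3 or more. The window of Klf2 holds 0. The D-box TTATGTAA, to which Dbp binds (0.819% of promoters, both strands), and the cyclic AMP element TGACGTCA (1.55%) have no match in these windows. A match is a run of letters and says nothing of binding.

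Ciart was at 8.92, 9.27 and 9.85 CPM in E3-05 and at 9.63, 8.81 and 8.48 CPM in E4-05. At time code 10 it was at 16.1 and 13.0 CPM in E3-10 and at 14.2, 14.8 and 11.9 CPM in E4-10. All 5 libraries of time code 10 lay above all 6 of time code 05, and the log2 fold change was 0.62 (SE 0.09), with 0.64 (SE 0.13) within E3 and 0.60 (SE 0.12) within E4. The 5 libraries of time code 15 outside the hindbrain-rich set were at 10.2 to 14.9 CPM, also above the highest of time code 05. In the hindbrain-rich libraries Ciart did not show this pattern: it was at 9.78 and 8.97 CPM at time code 05 and at 8.87, 8.64 and 11.5 CPM at time code 10, with a log2 fold change of 0.02 (SE 0.14). The difference between the sets was -0.60 (SE 0.17; adjusted p = 0.907 in edgeR) and did not pass over all genes, of which 4.98% had an unadjusted p under 0.05 and 0 were called.

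Per1, which carries E-boxes as well as elements for hormone and activity signals, was at 84.3, 76.0 and 80.7 CPM in E3-05 and at 65.8, 68.1 and 61.2 CPM in E4-05. It was at 148 and 116 CPM in E3-10 and at 110, 153 and 79.7 CPM in E4-10. Only E4-10 4, at 79.7 CPM, lay inside the range of time code 05. The log2 fold change was 0.77 (SE 0.14). In the hindbrain-rich libraries Per1 was at 57.9 and 48.1 CPM against 43.6, 71.0 and 110 CPM, with overlap (log2 fold change 0.46, SE 0.30).

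The rest of the clock loop differed little. Of 25 clock genes 20 lay above 0, with a median log2 fold change of 0.07 against 0.00 over all genes, and 0 were called by edgeR. Those at an unadjusted p under 0.05 were 5, against 1.52% of all genes in that direction: Ciart and Per1, and at smaller size Per3 (0.25, SE 0.08), the output factor Dbp (0.34, SE 0.13) and the repressor Nr1d1 (0.23, SE 0.10). Per3 was at 26.3 to 35.3 CPM at time code 05 and at 34.4 to 40.7 CPM at time code 10, with overlap. Per2, a partner of Per1, was at 0.27 (SE 0.18), and the repressors Cry1 and Cry2 were at -0.02 (SE 0.10) and 0.13 (SE 0.08). The activators Arntl (-0.19, SE 0.11) and Clock (0.00, SE 0.07) lay at or below 0. In the hindbrain-rich libraries 10 of the 25 clock genes lay above 0 (median -0.06) and 0 had an unadjusted p under 0.05.

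Klf4 and Klf2 were the Krüppel-like factors with the smallest p. Klf4 was at 6.63, 7.68 and 6.57 CPM in E3-05 and at 7.58, 6.19 and 7.82 CPM in E4-05. It was at 17.3 and 14.1 CPM in E3-10 and at 14.2, 13.4 and 7.07 CPM in E4-10. The first 4 of these lay well above time code 05, and E4-10 4, at 7.07 CPM, lay inside its range. The log2 fold change was 0.90 (SE 0.18), with 1.17 (SE 0.25) within E3 and 0.69 (SE 0.23) within E4. Without E4-10 4 it was 1.05 (SE 0.11), and edgeR then called Klf4 over all genes (adjusted p = 0.0262), the only gene it called.

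Klf2 was at 10.9, 10.8 and 15.3 CPM in E3-05 and at 9.87, 11.0 and 16.7 CPM in E4-05. It was at 34.5 and 27.1 CPM in E3-10 and at 26.1, 24.5 and 11.8 CPM in E4-10, and again only E4-10 4 lay inside the range of time code 05. The log2 fold change was 1.00 (SE 0.23), with 1.32 (SE 0.32) within E3 and 0.73 (SE 0.30) within E4.

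Both factors were also higher at time code 10 in the hindbrain-rich libraries, which the rule did not use. Klf4 was at 6.73 and 5.40 CPM at time code 05 and at 10.0, 10.2 and 10.4 CPM at time code 10. Klf2 was at 7.83 and 8.39 CPM and at 14.8, 21.4 and 19.2 CPM. Neither gene overlapped, but with 3 libraries against 2 the same held for 10.5% of all genes in this direction and 10.2% in the other, so the lack of overlap does not set them apart. The log2 fold changes were 0.72 (SE 0.25) for Klf4 and 1.17 (SE 0.35) for Klf2. Each had an adjusted p of 0.804 in edgeR, where 0 of 21214 genes were called and 1302 (6.14%) had an unadjusted p under 0.05. The differences between the sets, -0.18 (SE 0.30) for Klf4 and 0.17 (SE 0.40) for Klf2, were smaller than their errors. The hindbrain-rich libraries share titled months and column order with the 11, so they do not separate these from the time code. Their tissue content also differed by time code. The cerebellum and hindbrain list averaged 6.57 to 6.98 log2 CPM at time code 05 and 5.89 to 6.39 at time code 10. Striatum averaged 3.27 to 3.52 against 3.71 to 4.26, and red blood cells 2.26 to 2.52 against 0.15 to 0.36. Blood leukocytes (-0.72 to 0.47 against -1.32 to -1.06) were apart as well. So were olfactory bulb (0.44 to 0.92 against 0.96 to 2.11) and hypothalamus (-1.36 to -1.3 against -1.13 to 2.54). Some other lists overlapped, such as astrocytes (8.43 to 8.44 against 8.24 to 8.54). The part of tissue content was not tested.

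**Figure D2:**
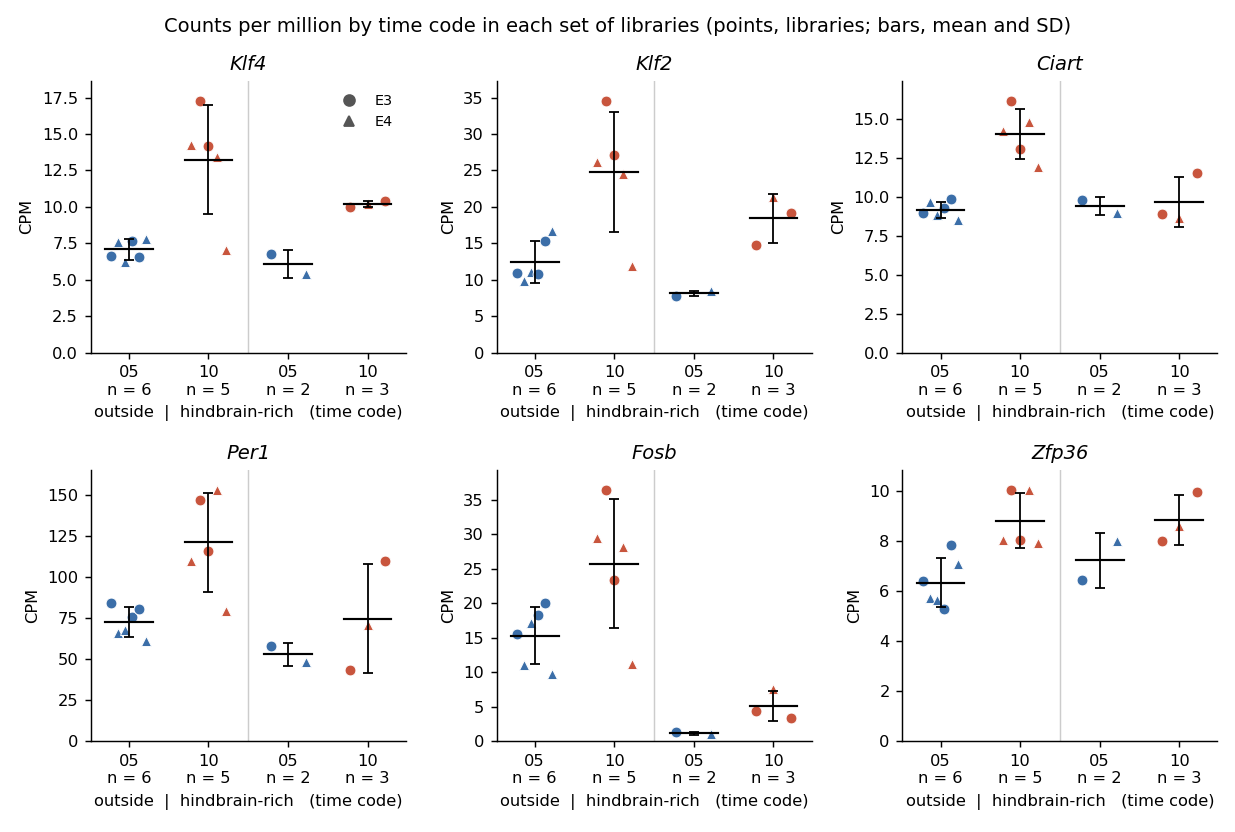
CPM (y axis) of 6 genes by time code (x axis), for the libraries outside the hindbrain-rich set at left and the hindbrain-rich libraries at right of each panel. Points are libraries (circles, E3; triangles, E4), and bars are the mean and SD. Klf4 and Klf2 are higher at time code 10 in both sets, while Ciart at time code 10 stands at 11.9 to 16.1 CPM outside the set and at 8.64 to 11.5 CPM within it.

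Other members of the family differed less or the other way in the 11 libraries. Of 17 Krüppel-like genes, 16 were tested and 9 lay above 0 (median 0.06). Beside Klf4 and Klf2, Klf6 (-0.18, SE 0.07) and Klf7 (-0.23, SE 0.09) had an unadjusted p under 0.05, both lower, where 1.14% of all genes were. Klf10, an early factor downstream of TGF-beta, was at 0.68 (SE 0.33), with E4-10 3 highest at 75.5 CPM against 14.9 to 35.3 CPM at time code 05. The glucocorticoid targets Klf9 (0.10, SE 0.13) and Klf15 (0.21, SE 0.10) differed little. Among the hindbrain-rich libraries 10 of 16 lay above 0 (median 0.04), with 4 higher and 0 lower at an unadjusted p under 0.05. Of all genes there 3.05% were higher and 3.09% lower at that level.

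Endothelial genes that respond to flow were split. The list holds adhesion genes such as Vcam1 and Icam1 beside Nos3 and Thbd. It was not divided by direction of response, so its median has no expected sign. Of 14 tested, 7 lay above 0, with a median of 0.01 and 0 at an unadjusted p under 0.05. Within E3 12 of 14 lay above 0 (median 0.24), and within E4 4 of 14 did (median -0.08). They include the nitric oxide synthase Nos3 (0.13, SE 0.10) and thrombomodulin, Thbd (0.16, SE 0.16), both known targets of Klf2. The 2 with the smallest p were the caveolar coat protein Cav1 (0.23, SE 0.12) and the angiopoietin receptor Tek (0.16, SE 0.11). The endothelial identity list averaged 4.81 to 5.06 log2 CPM at time code 05 and 4.88 to 5.13 at time code 10. Of its 18 genes 14 lay above 0 (median 0.11), with 18 above 0 within E3 (median 0.19) and 11 within E4 (median 0.02). Its member Itm2a did not overlap (0.19, SE 0.06), where 0.202% of all genes were apart and higher. Rgs5, a pericyte signalling regulator in the list of mural cells and fibroblasts, did not overlap either (0.20, SE 0.06, with 159 to 183 CPM against 189 to 209 CPM). The part of cell content in the values of Klf4 and Klf2 was not tested.

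The list of vascular early-response and mRNA decay genes was mixed. Of 24 genes 15 lay above 0 (median 0.15) and 4 had an unadjusted p under 0.05, all higher, against 1.52% of all genes. Zfp36, whose protein speeds the decay of AU-rich mRNA, was at 5.28 to 7.84 CPM at time code 05 (median 6.07) and at 10.0, 8.06, 8.04, 10.0 and 7.91 CPM at time code 10, which did not overlap (log2 fold change 0.48, SE 0.13). Apold1, an early gene of endothelium, was at 0.75 (SE 0.26), the stress factor Atf3 at 0.86 (SE 0.34) and the survival factor Mcl1 at 0.21 (SE 0.09). Atf3 stood at 1.67 (SE 0.40) within E3 and at 0.15 (SE 0.37) within E4. Jun (0.06, SE 0.16) and Jund (0.00, SE 0.08) differed little, while Junb was at 0.56 (SE 0.29). In the hindbrain-rich libraries the list had 12 of 24 above 0 (median 0.00), with 1 higher and 3 lower at an unadjusted p under 0.05. Of all genes there 3.05% were higher and 3.09% lower at that level. The 3 lower were the growth arrest genes Gadd45b (-0.55, SE 0.21) and Btg1 (-0.47, SE 0.21) and the mRNA decay gene Zfp36l1 (-0.25, SE 0.11). Apold1, the higher gene, was at 2.47 and 3.97 CPM at time code 05 and at 6.70, 8.52 and 7.25 CPM at time code 10 there (log2 fold change 1.22, SE 0.40).

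Neuronal immediate early genes lay higher at time code 10 in nearly the whole list. Of 22 genes 21 lay above 0, with a median log2 fold change of 0.43 against 0.00 for the 19844 genes. None passed in edgeR (0 called), and 6 had an unadjusted p under 0.05, all higher, where 1.52% of all genes were. These are the transcription factors Fosb (0.80, SE 0.24), Egr2 (1.28, SE 0.46), Egr4 (0.67, SE 0.28), Nr4a3 (0.89, SE 0.39) and Fosl2 (0.74, SE 0.31), and the kinase Sik1 (0.48, SE 0.17). Npas4, which neurons induce on calcium entry, was the gene below 0 (-0.18, SE 0.27). The count of 6 was 1 without E3-10 2 and 12 without E4-05 2, and the median moved with single libraries too. It was 0.67 without E4-05 2, 0.31 without E4-05 1, and 0.26 with 19 genes above 0 and 1 at an unadjusted p under 0.05 without E3-05 1 and E4-05 1, the pair rich in haemoglobin.

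Fosb, an AP-1 subunit, was at 15.6, 18.3 and 20.0 CPM in E3-05 and at 11.1, 17.2 and 9.69 CPM in E4-05. It was at 36.5 and 23.4 CPM in E3-10 and at 29.5, 28.1 and 11.3 CPM in E4-10. All libraries of time code 10 except E4-10 4 lay above those of time code 05. Arc, a synaptic protein made on activity, spread more widely. It was at 105, 232 and 258 CPM in E3-05, at 59.5, 287 and 116 CPM in E4-05, at 497 and 211 CPM in E3-10 and at 338, 440 and 110 CPM in E4-10. Its groups overlapped, and the log2 fold change was 0.89 (SE 0.45). Egr1 (0.55, SE 0.27), Nr4a1 (0.89, SE 0.44) and Fos (0.58, SE 0.38) overlapped as well.

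In the hindbrain-rich libraries 20 of the 22 genes lay above 0, with a median of 0.59 and 6 at an unadjusted p under 0.05, all higher; of all genes there 3.05% were higher and 3.09% lower at that level. Fosb was at 1.34 and 1.04 CPM at time code 05 and at 4.38, 7.54 and 3.45 CPM at time code 10. Its log2 fold change was 2.1 (SE 0.48), with an adjusted p of 0.804 in edgeR and of 0.0189 in DESeq2. Nr4a3 (1.88, SE 0.66), Nptx2, a secreted synaptic pentraxin (1.45, SE 0.37), and Sik1 (0.76, SE 0.27) were also higher there, while Arc was at 0.18 (SE 0.62). Striatum genes lay higher at time code 10 in these libraries too, 10 of 12 above 0 (median 0.7). The part of tissue content in the immediate early values there was not tested.

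Immediate early genes are strong in cortex, and cortex content was unequal between libraries. The cortical neuron list averaged 5.01 to 7.09 log2 CPM at time code 05 and 5.89 to 7.13 at time code 10, with 10 of 12 genes above 0 (median 0.10). The immediate early list averaged 4.62 to 5.65 at time code 05 and 4.90 to 6.04 at time code 10. E4-05 4 was lowest in both lists at time code 05 (4.62 and 5.01). At time code 10 the lowest differed, E4-10 4 in the immediate early list (4.90) and E3-10 3 in the cortical list (5.89). The part of cortex in the immediate early values was not tested.

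**Figure D3:**
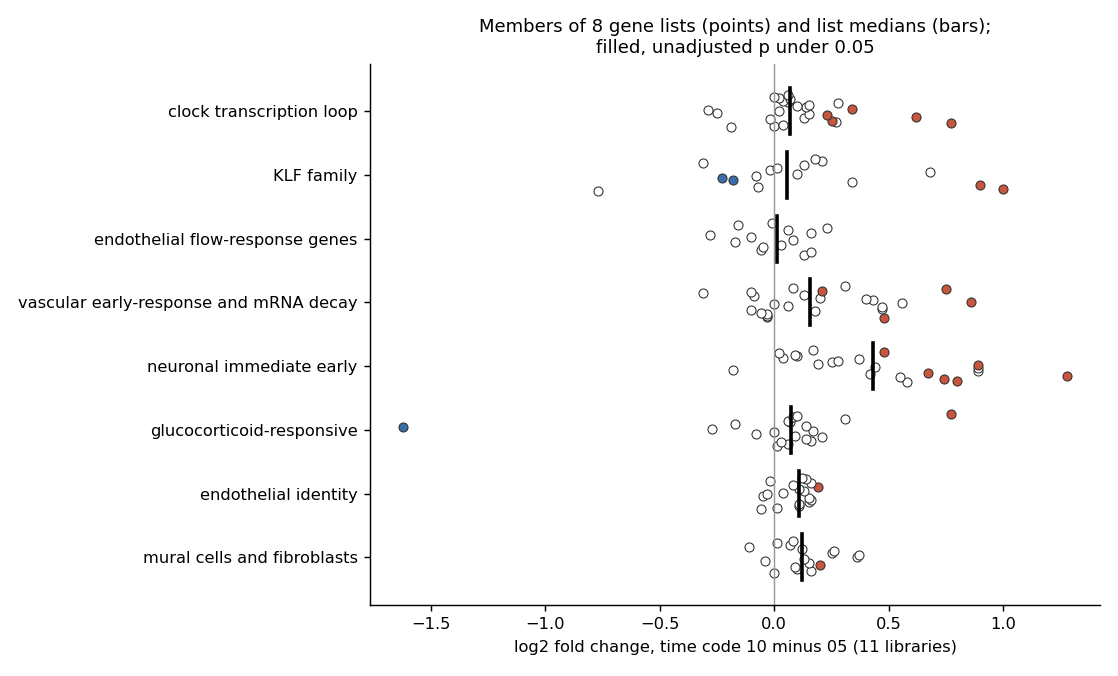
Log2 fold change (time code 10 minus 05, x axis) of the members of 8 gene lists (y axis) in the libraries outside the hindbrain-rich set. Each point is a gene, filled where its unadjusted p is under 0.05, and bars are list medians. Of the neuronal immediate early genes 21 of 22 lie above 0, at a median of 0.43.

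E4-10 4 was the lowest of the 5 libraries of time code 10 for Klf4, Klf2, Fosb, Arc, Nr4a1 (49.7 CPM), Egr1 (255 CPM), Per1, Zfp36, Ciart and TrnW. It lay inside the range of time code 05 for the first 7 of these, and above it for Zfp36 (7.91 CPM), Ciart (11.9 CPM) and TrnW (15.5 CPM), a mitochondrial tRNA. Arc was inside that range in E3-10 3 as well (211 CPM). E4-10 4 has column number 16. The next columns, E3-15 1 in column 17 and E4-15 1 in column 18, were low as well, with Klf4 at 7.26 and 6.42 CPM and Klf2 at 15.8 and 10.8 CPM. In the other 6 libraries of time code 15 Klf4 was at 11.2 to 20.1 CPM and Klf2 at 25.6 to 34.4 CPM.

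**Figure D4:**
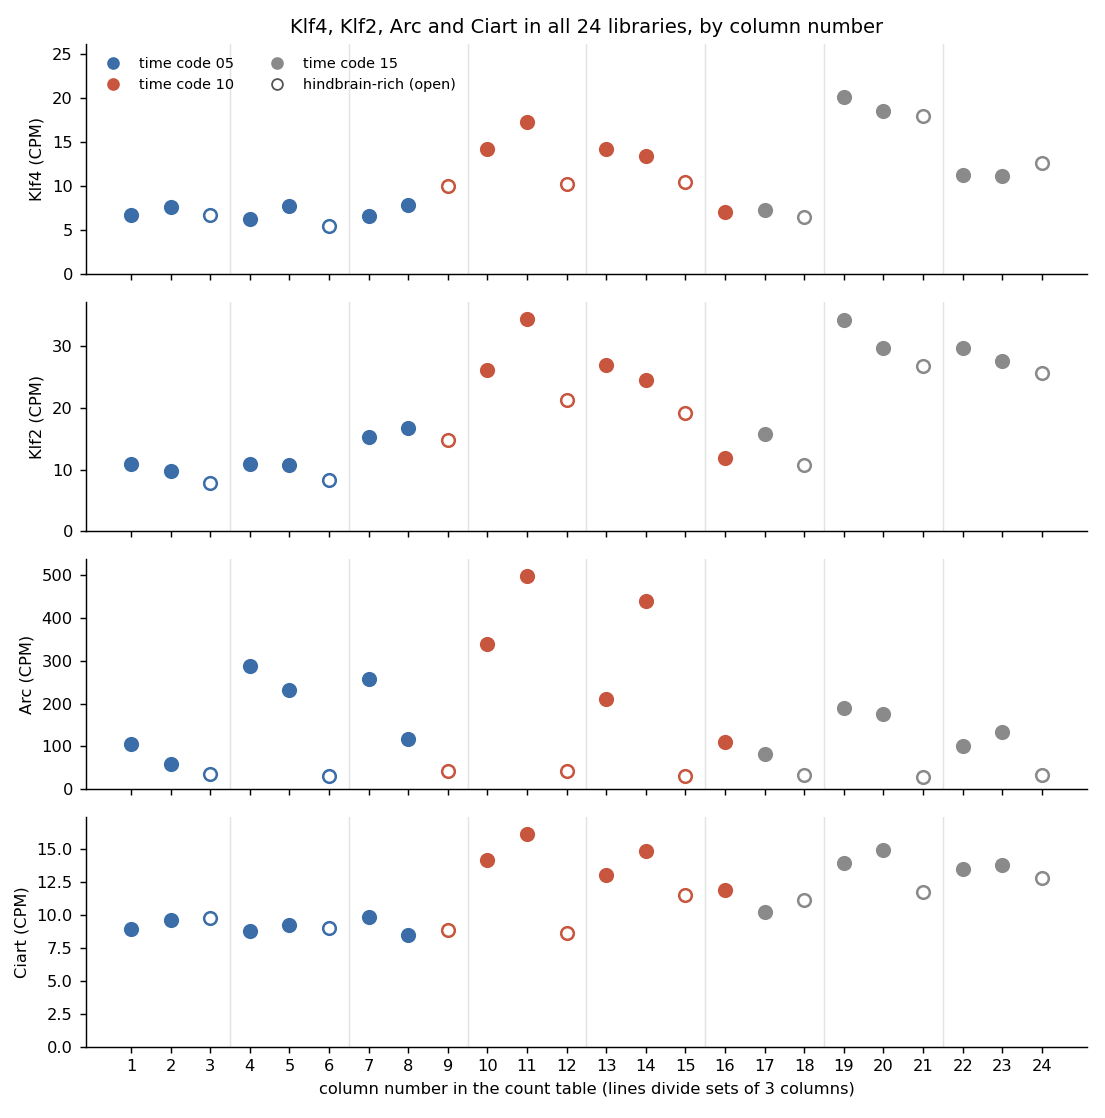
CPM (y axis) of Klf4, Klf2, Arc and Ciart in all 24 libraries by column number (x axis), with open points for the hindbrain-rich libraries. Klf4 and Klf2 are low in columns 16, 17 and 18, which hold the last library of time code 10 and the first 2 of time code 15.

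Mitochondrial tRNAs, which carry amino acids for translation inside the organelle, were among the genes with the smallest p. TrnW was at 8.70, 8.31 and 10.8 CPM in E3-05 and at 11.7, 8.79 and 13.0 CPM in E4-05. It was at 18.5 and 17.0 CPM in E3-10 and at 16.8, 16.8 and 15.5 CPM in E4-10, with no overlap (log2 fold change 0.72, SE 0.12). TrnH did not overlap either (2.67 to 4.26 CPM against 4.61 to 6.07 CPM; 0.63, SE 0.14), and TrnR overlapped (3.51 to 6.08 CPM against 5.48 to 9.51 CPM; 0.80, SE 0.17). Of 16 mitochondrial tRNAs tested, 12 lay above 0 (median 0.28) and 5 had an unadjusted p under 0.05, all higher, where 1.52% of all genes were. Within E3 the median was 0.58, within E4 0.05, and in the hindbrain-rich libraries 0.01. These RNAs are not a usual target of polyA selection, and the strand setting of the counting is not given in the sources used here.

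Glucocorticoid-responsive genes, which include targets shared with Per1 and the Krüppel-like factors, were nearly level. Of 20 genes 15 lay above 0 (median 0.08), with 1 higher and 1 lower at an unadjusted p under 0.05 (1.52% and 1.14% of all genes). The sensitive targets Fkbp5 (0.01, SE 0.09), Sgk1 (0.06, SE 0.10) and Tsc22d3 (0.03, SE 0.18) differed little. Lcn2, an iron-binding acute phase protein, was lower (-1.62, SE 0.62), at 0.461 to 4.03 CPM at time code 05 and 0.192 to 1.34 CPM at time code 10, with overlap. Lcn2 was highest in E4-05 1, which was also rich in haemoglobin, and the part of blood in its value was not tested.

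Red blood cell genes were lower at time code 10. Of 7 tested 6 lay below 0 (median -2.94) and 5 had an unadjusted p under 0.05, where 1.14% of all genes were lower at that level. They are the haemoglobin chains Hbb-bs (-3.62, SE 1.07), Hbb-bt (-3.19, SE 0.90), Hba-a1 (-3.29, SE 1.03) and Hba-a2 (-2.46, SE 0.81), and Alas2, the first enzyme of haem synthesis in erythroid cells (-2.94, SE 0.92). The haemoglobin genes are near-identical copies, so reads could be split between them. Without E3-05 1 and E4-05 1 Hbb-bs was at -1.18 and the list median was -0.96. Without this pair Klf4 was at 0.91, Klf2 at 0.88 and Ciart at 0.63. In the hindbrain-rich libraries 0 of 7 red blood cell genes lay above 0 (median -2.45). There 3 had an unadjusted p under 0.05, all lower, where 3.09% of all genes were. Blood leukocyte genes there had 0 of 7 above 0 (median -1.86) and 5 lower at that level. In the 11 libraries 4 of 7 leukocyte genes lay above 0 (median 0.13).

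The other genes lower at time code 10 with the smallest p rest on few reads. Mboat4, the enzyme that acylates ghrelin, had 10 to 17 counts in each library of time code 05 and 2 to 13 at time code 10 (-1.79, SE 0.42). Hpse2, a heparanase relative without its activity, had 12 to 20 counts against 1 to 9 (-2.06, SE 0.52). Both were free of overlap in CPM, as 0.131% of all genes were in this direction. The filter keeps a gene on the libraries where it is higher, so genes with so few counts could enter through time code 05. Their direction is therefore given as a description only. The uncharacterised genes Gm32574 (-0.98, SE 0.23) and 9030025P20Rik (-1.08, SE 0.28) were also lower. In the hindbrain-rich libraries Mboat4 (0.45, SE 0.71) and Hpse2 (0.74, SE 0.72) lay above 0.

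The time contrast was also taken within each E code. Neither E3 nor E4 had a gene called by edgeR (0%), with 624 (3.14%) and 680 (3.43%) at an unadjusted p under 0.05. The difference between the E codes also gave 0 of 19844, with 774 (3.90%) at an unadjusted p under 0.05 and a smallest adjusted p of 0.824. That gene was Lmod1, a smooth muscle actin nucleator. It was at 4.30, 4.61 and 3.72 CPM in E3-05 and at 7.80 and 7.34 CPM in E3-10. It was at 6.20, 4.17 and 4.09 CPM in E4-05 and at 3.08, 3.52 and 3.12 CPM in E4-10. The groups did not overlap, higher within E3 and lower within E4. Within E3 11.1% of all genes were likewise apart and higher (7.92% lower), and within E4 3.88% were apart and lower (3.21% higher). The log2 fold changes were 0.84 (SE 0.20) within E3 and -0.57 (SE 0.18) within E4.

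The list of mural cells and fibroblasts, which includes Lmod1, went the same way. Of its 17 genes tested, 17 lay above 0 within E3 (median 0.60) and 4 within E4 (median -0.22). Smooth muscle actin, Acta2, was at 0.79 (SE 0.32) and -0.68 (SE 0.29), and smooth muscle myosin, Myh11, at 0.85 (SE 0.28) and -0.42 (SE 0.25). The list averaged 3.69, 4.10 and 3.86 log2 CPM in E3-05 and 4.52 and 4.36 in E3-10, against 4.03, 3.68 and 3.95 in E4-05 and 3.70, 3.63 and 3.84 in E4-10. Cav1 was at 0.55 (SE 0.13) within E3 and -0.03 (SE 0.12) within E4, a difference that did not pass over all genes.

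Some lists of brain regions had medians of opposite sign in the E codes, and others did not. All 10 thalamus genes lay above 0 within E3 (median 0.69) and below 0 within E4 (median -1.66). For striatum, 0 of 12 lay above 0 within E3 (median -0.49) and 11 within E4 (median 0.85). Hypothalamus lay below 0 in both (medians -2.46 within E3 and -0.23 within E4), as did olfactory bulb (-0.02 and -0.09). The 20 myelin and oligodendrocyte genes, a cell type list, all lay above 0 within E3 (median 0.18) and all below 0 within E4 (median -0.26). The thalamus list averaged 4.33, 5.00 and 6.06 log2 CPM in E3-05, 4.74 and 6.72 in E3-10, 4.79, 5.67 and 7.07 in E4-05 and 4.87, 3.76 and 3.96 in E4-10. With the striatum and thalamus means as covariates Klf4 was at 0.92, Klf2 at 1.13 and Ciart at 0.59.

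**Figure D5:**
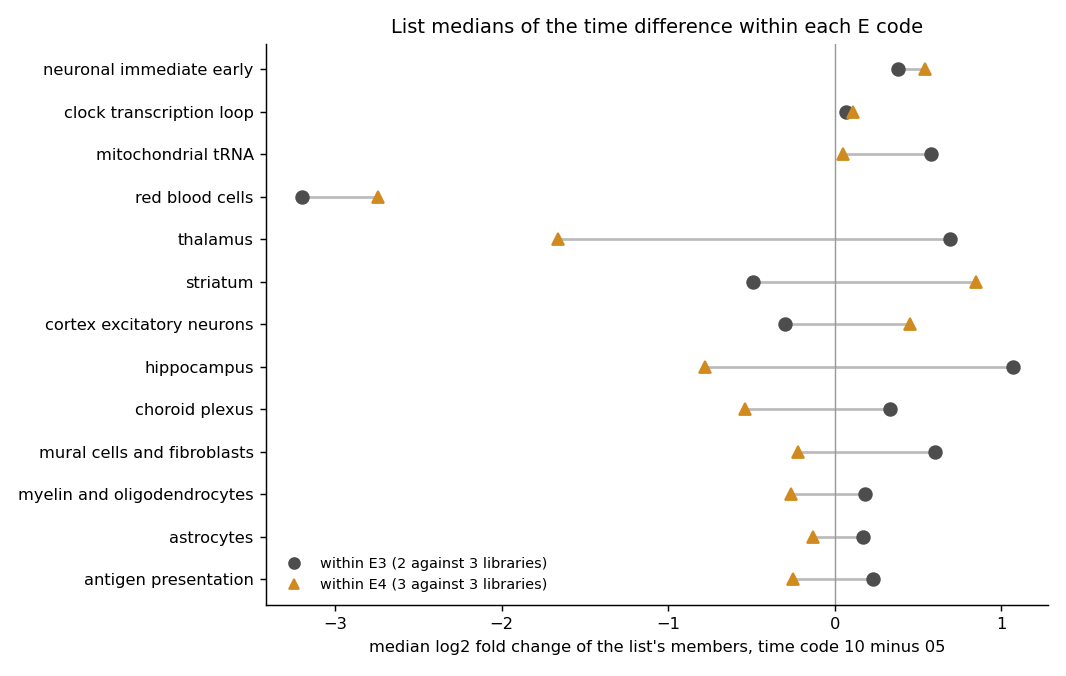
Median log2 fold change (time code 10 minus 05) of 13 gene lists within E3 and within E4, in the libraries outside the hindbrain-rich set. The medians of thalamus (0.69 and -1.66) and of mural cells and fibroblasts (0.60 and -0.22) have opposite signs, while neuronal immediate early genes are above 0 in both (0.38 and 0.54).

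Genes named in the series title differed little between the time codes. Asxl1, a polycomb-associated chromatin protein, was at 0.05 (SE 0.05), Nr1h3, which encodes LXR alpha, at 0.17 (SE 0.12), and Apoe, the lipid carrier of brain, at -0.04 (SE 0.08). Of 17 genes of the LXR and lipoprotein list 8 lay above 0 (median -0.01), and of 19 genes of H3K4 methylation and polycomb 14 did (median 0.03). Homeostatic microglia genes had 8 of 14 above 0 (median 0.03), with the receptor P2ry12 at -0.03 (SE 0.13) and Tmem119 at 0.11 (SE 0.08). None of these 3 lists had a median farther from 0 than 0.03.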

How the data were processed

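RNA was extracted with TRIzol, polyA libraries were made with a NEBNext Ultra kit and sequenced on a NovaSeq 6000, per the labels' protocols. The authors deposited 1 table of gene counts. HISAT2 2.1.0, featureCounts 2.0.6 and mm39 are named in the submitters' processing notes; the annotation and strand setting are not given in the sources used here. Of small counts from 1 to 19, 66.7% to 70.8% were even in the 11 libraries, so read pairs may have been counted as 2 reads.

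Counts were fitted in R 4.3.3 with edgeR 4.0.16 (quasi-likelihood F test, TMM factors, filterByExpr), with E code and time code as terms, and adjusted by Benjamini-Hochberg over all genes, called at an adjusted p under 0.05. CPM use TMM factors over 24 libraries, and list means are log2 CPM with a prior count of 2. The fit has 8 residual degrees of freedom. The hindbrain-rich libraries were tested in a fit of 16 libraries. DESeq2 1.42.0 and limma-voom (limma 3.58.1), other factors, filters, a replicate block, region covariates and leaving out libraries were alternatives. Scripts were tested on simulated data. Members, lists and named genes were chosen with earlier results of these data known. Named were Klf4, Klf2 and Ciart, the 4 genes with the smallest p in each direction, and the 2 with the smallest p in each of the clock, Krüppel-like, flow, early-response, immediate early and glucocorticoid lists; others were chosen after their values were seen.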

Additional observations from a re-analysis of the deposited data

Results flagged for a closer look

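Hba-a2, a haemoglobin alpha chain, was at 9.10 CPM in E3-05 1, far from the other 5 libraries of time code 05, of which the nearest was at 2.91 CPM. The gap is 0.696 of the whole range of the group. In 54 groups of values of 27 named genes this was the 1 value that stood so far apart, and chance gives about 1 in 20 groups.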

How the results depend on the processing

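Counts of called genes were 0 in all 6 comparisons under edgeR and changed with DESeq2 and with single libraries; the cause was not tested. DESeq2 called 5 genes between the time codes, 1 within E3, 1 within E4, 5 for the difference between E codes, 2 in the hindbrain-rich libraries and 4 for the difference between the sets. Those 4 include Vgll1 (log2 fold change 21.71, SE 4.84) and Platr21 (41.31, SE 6.64), values too large to be read as real sizes. Leaving out each library in turn gave 0 to 1 between the time codes (1, Klf4, without E4-10 4), 0 within E3, within E4 and between E codes, 0 to 187 in the hindbrain-rich libraries and 0 to 8 between the sets. The highest of the last pair came without E3-10 4. The replicate block gave 0 calls in each comparison. Deviations of libraries that share a number had a median correlation of 0.008 (10 pairs) against -0.084 for other pairs (45). The ranges were wide and overlapped (-0.442 to 0.262 against -0.526 to 0.617). With so few pairs this cannot decide whether the numbers pair the libraries. Of 749 alternatives for 27 named genes, 743 kept direction and side of the threshold, 6 passed it and 0 reversed. Leaving out each library, log2 fold changes ran from 0.80 to 1.05 for Klf4, 0.87 to 1.17 for Klf2, 0.56 to 0.67 for Ciart and 0.63 to 0.86 for Per1.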

Other observations

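Cholesterol synthesis genes lay higher at time code 10 in the hindbrain-rich libraries, which is outside the contrast of the 11 libraries. There 20 of 20 lay above 0 (median 0.31) and 7 had an unadjusted p under 0.05, all higher, where 3.05% of all genes were. Outside that set 14 of 20 lay above 0 (median 0.04) with 0 at that level. Within the hindbrain-rich set the list averaged 5.64 and 5.67 log2 CPM at time code 05. At time code 10 it averaged 6.28 in E3-10 1, 5.91 in E4-10 2 and 5.67 in E3-10 4. Cyp51, a sterol demethylase, was at 75.6 and 75.5 CPM against 133, 97.9 and 87.0 CPM in the hindbrain-rich libraries (log2 fold change 0.47, SE 0.15). Hmgcs1, an early enzyme of the pathway, was at 227 and 238 CPM against 393, 293 and 253 CPM (0.42, SE 0.16). E3-10 1 was highest in both, and it was also highest in the myelin list, at 8.45 log2 CPM against 7.41 to 7.79 in the other 4; the part of myelin was not tested.

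Heat shock genes showed 18 of 18 above 0 in the hindbrain-rich libraries (median 0.17) and 6 of 18 in the 11 libraries (median -0.01).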
